A study of Mus musculus with 15 samples.

Results

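The genes described here are 10 nuclear genes that shape mitochondria and keep their DNA: the fusion genes Mfn1, Mfn2 and Opa1, the fission genes Dnm1l, Fis1 and Mff, and the DNA maintenance genes Tfam, Polg, Polrmt and Nrf1. They were chosen by name, and each of the 10 names matched 1 row of a table of 24030 gene symbols. All 10 passed the filter on low counts. The libraries were made from whole brown fat of mice, a tissue that oxidises fuel to keep the body warm, and RNA was sequenced in bulk. Mice without DJ-1 in brown adipose tissue (BDJ1KO, here KO) were compared with flox mice (here WT). DJ-1 is the product of Park7 and helps cells withstand oxidative stress. Housing lasted 8 weeks, either at room temperature, where mice spend energy on staying warm, or at 29 °C, where they need little of it. This gave 4 WT and 4 KO libraries at room temperature, and 4 WT and 3 KO libraries at 29 °C. The Cre driver, strain, sex and age are not given in the sources used here. Nor is it stated whether each library is a separate mouse, so the p-values cover only differences among these samples, whose spread may be technical.

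Mitochondria are remodelled by fusion and fission. The mitofusins MFN1 and MFN2 are GTPases that join outer membranes, and OPA1 is the GTPase that joins inner membranes and holds cristae in shape. DRP1, encoded by Dnm1l, is the GTPase that constricts and divides the organelle, and MFF and FIS1 are outer-membrane proteins that can bring it there. TFAM packages mitochondrial DNA (mtDNA) and starts its transcription, POLRMT transcribes it, and the catalytic subunit encoded by Polg replicates it. NRF1, nuclear respiratory factor 1, is a transcription factor that binds promoters of genes for mitochondrial proteins. Brown adipocytes are packed with mitochondria, and MFN2 and OPA1 are known to matter for their heat production.

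Library totals lay between 23977447 and 26789258 estimated counts, apart from KO at 29 °C replicate 1 with 38800962. Park7 stood at 24.98 to 35.2 CPM (counts per 1e+06 counts of the TMM-scaled library) in KO and 103.7 to 128 CPM in WT, so every library matched its genotype label. All 8 brown adipocyte markers examined, Ucp1 among them, were detected in every library. Their summed share was 0.360% to 0.476% in WT kept at 29 °C and 1.06% to 1.28% elsewhere, except KO at room temperature replicates 2 and 4 (0.752% and 0.692%), which stood apart and were left out in 1 alternative. Ucp1 made up most of the gap between the WT groups (8602 CPM in WT at room temperature, 1019 CPM in WT at 29 °C). By edgeR's quasi-likelihood test 7 of the 8 markers were lower in WT at 29 °C (87.5%, against 32.8% of all genes). The exception was Cox8b, at 568 and 578 CPM. In KO against WT at 29 °C 4 of the 8 were higher and 1 lower, 62.5% called against 44.7% of all genes. Ucp1, at 7233 CPM in KO at 29 °C, also made up most of that gap. Cox8b (404 CPM in KO, 578 CPM in WT) and Cox7a1 (206 and 237 CPM) had lower means in KO there. Endothelial markers, 10 in number, took 0.190% to 0.231% in WT at 29 °C, 0.0755% to 0.109% in KO at 29 °C and at most 0.0693% at room temperature. Markers of skeletal muscle took 0.155% of counts in WT at 29 °C replicate 2, 0.0560% in KO at 29 °C replicate 2 and 0.185% in replicate 3, and at most 0.00307% in the others. Of these 10 muscle markers, 3 to 6 were at 0 in each library at room temperature. In bulk tissue, fewer cells of a type and less RNA per cell cannot be told apart, and the part of these cell type differences in the results was not tested.

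Sequence upstream of annotated starts was searched for matches to 4 short motifs. It is shown in full for Opa1 and Polrmt, and in short stretches around the ETS matches. The window was the 250 bases before a RefSeq transcription start (GRCm38.p6). Both strands were searched for the palindromic NRF1 element (10 letters, shown in capitals in the Opa1 sequence), CCGGAAGT (an ETS element of the kind GABP binds), TCAAGGTCA (the ERR element) and TGACGTCA (the cyclic AMP response element). All 10 genes had at least 1 window, and there were 16 windows in all. The NRF1 element was found in 1 of the 16 windows (6.25%), that of Opa1, against 0.782% of all 32851 windows. The ETS element was found in 4 of the 16 (25%), each from a different gene, against 2.88% of all windows. The ERR and cyclic AMP elements, present in 0.387% and 1.55% of all windows, matched none of the 16. A match is a description of the letters, not evidence that a factor binds there.

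Opa1 and Polrmt, 2 of the 3 genes with the widest range of group means, are shown in full, 5′ to 3′ on the gene's strand. The Opa1 window is at chr16:29579084-29579333 on the plus strand, and its capitals mark the NRF1 element, 59 to 50 bases before the start. The Polrmt window is at chr10:79746582-79746831 on the minus strand and holds no match, so it has no capitals.
Opa1: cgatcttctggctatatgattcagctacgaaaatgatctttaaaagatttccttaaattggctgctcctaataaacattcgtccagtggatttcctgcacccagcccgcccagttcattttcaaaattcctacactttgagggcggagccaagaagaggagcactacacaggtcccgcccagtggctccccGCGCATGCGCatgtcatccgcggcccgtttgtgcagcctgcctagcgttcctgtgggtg
Polrmt: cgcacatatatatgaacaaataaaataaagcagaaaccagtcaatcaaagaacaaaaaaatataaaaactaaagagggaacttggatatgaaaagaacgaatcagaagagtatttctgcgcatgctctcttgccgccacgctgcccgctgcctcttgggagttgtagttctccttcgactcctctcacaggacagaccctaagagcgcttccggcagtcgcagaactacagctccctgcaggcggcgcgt

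The 4 ETS matches are shown with the bases around them, 30 bases each, with the element in capitals. They belong to Tfam (chr10:71238073-71238102, minus strand), Polg (chr7:79466293-79466322, minus strand), Mfn1 (chr3:32529427-32529456, plus strand) and Fis1 (chr5:136953245-136953274, plus strand). The Tfam and Polg stretches lie before the RefSeq start used here but inside the gene's own first annotated exon in GENCODE, which starts further upstream (236 and 89 of the 250 bases of those windows are exonic). These 4 genes did not share a direction in the comparisons below, where Tfam fell and Polg rose with warm housing in WT.
Tfam: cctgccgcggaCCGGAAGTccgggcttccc
Polg: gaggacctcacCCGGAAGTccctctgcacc
Mfn1: gatccgaagcgCCGGAAGTagccgccccta
Fis1: aggaggcaccacCCGGAAGTtcaggcttcc

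Levels of different genes were compared per kilobase of annotated exon. In WT at room temperature Mfn2 was the highest at 88.0 ± 2.24 CPM per kb (SD, n = 4), then Fis1 at 61.0 ± 5.18. Mff (45.1 ± 2.18) and Opa1 (43.5 ± 2.13) came next and did not differ beyond their spread. Dnm1l (23.7 ± 1.48) and Mfn1 (17.7 ± 1.11) lay in the middle. Tfam (12.9 ± 0.812) and Polrmt (12.02 ± 0.713) did not differ beyond their spread either, and Polg (7.65 ± 0.276) and Nrf1 (2.002 ± 0.0576 CPM per kb) were the lowest. In WT at 29 °C the order had changed: Fis1 led at 63.3 ± 2.03 CPM per kb, Mfn2 followed at 35.6 ± 2.83, and Opa1, at 12.8 ± 0.812, stood beside Mfn1, at 13.4 ± 1.02. Polg, at 9.97 ± 0.940, was then above Tfam, at 4.47 ± 0.273, and Polrmt, at 4.28 ± 0.523. In KO at 29 °C (n = 3) Fis1 (51.1 ± 3.02 CPM per kb) and Mfn2 (51.0 ± 6.32) were level, followed by Mff (40.8 ± 5.91) and Opa1 (25.0 ± 4.69). From here on, levels are CPM and are compared only within a gene.

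**Figure D1:**
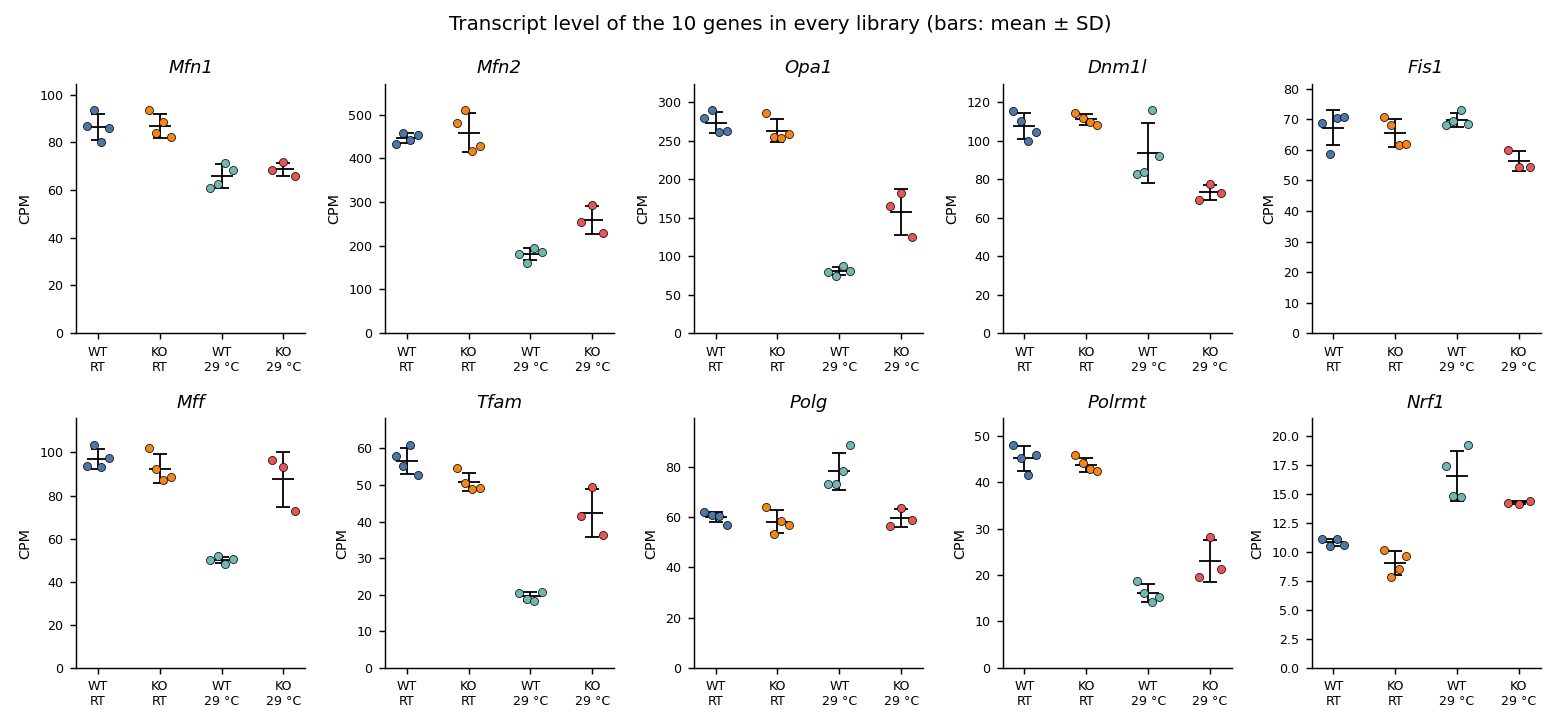
Level of each of the 10 genes (y axis, CPM from 0) in every library, by group (x axis: WT and KO at room temperature, RT, and at 29 °C); points are libraries and bars are mean ± SD. Mfn2, Opa1, Mff, Tfam and Polrmt were lowest in WT at 29 °C and higher in KO at 29 °C, while Polg and Nrf1 were highest in WT at 29 °C.

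Opa1, the inner-membrane fusion gene (chromosome 16, 29579334 to 29654884, plus strand, GRCm38/mm10), varied most. Its levels were 279, 289.6, 262 and 263 CPM in WT and 286, 255, 254 and 258 CPM in KO at room temperature. At 29 °C they were 79.5, 74.3, 86.7 and 81.2 CPM in WT and 166, 181 and 124 CPM in KO. The room-temperature genotypes overlapped, WT at 29 °C lay far below every other group, and KO at 29 °C lay between without touching either. Warm housing lowered Opa1 3.399-fold in WT (log2 fold change -1.77 ± 0.10 SE, adjusted p = 1.15e-09 by edgeR's quasi-likelihood test) and 1.67-fold in KO (-0.74 ± 0.11, adjusted p = 6.5e-05). At 29 °C it was 1.96-fold higher in KO than in WT (0.97 ± 0.11, adjusted p = 5.2e-06), which left it at 57.5% of its level in WT at room temperature.

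Mfn2 (chromosome 4, 147873599 to 147904704, minus strand) was the more abundant mitofusin throughout. It measured 432, 458, 442 and 453 CPM in WT and 482, 510.1, 416 and 429 CPM in KO at room temperature. With warm housing it measured 182, 160.4, 194 and 186 CPM in WT and 255, 293 and 229 CPM in KO. All WT libraries at 29 °C were below all KO libraries, and all 7 warm libraries were below all 8 at room temperature. The fall with warm housing was 2.47-fold in WT (log2 fold change -1.30 ± 0.10) and 1.77-fold in KO (-0.83 ± 0.10), with adjusted p of 8.4e-09 and 1.5e-05 by edgeR's quasi-likelihood test. In KO against WT at 29 °C it was 1.43-fold higher (0.52 ± 0.10, adjusted p = 6.4e-04). Leaving out the 3 libraries with muscle transcripts, which keeps only KO replicate 1 at 29 °C, this became 0.37 (adjusted p = 0.0552).

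Mfn1 (chromosome 3, 32529465 to 32579239, plus strand), the other mitofusin, ran from 80.2 to 93.5 CPM over the 8 room-temperature libraries. At 29 °C it stood at 60.9, 62.4, 71.4 and 68.6 CPM in WT and 68.4, 71.7 and 66.0 CPM in KO. Temperature parted these libraries and genotype did not. It fell with warm housing in WT (-0.40 ± 0.08) and in KO (-0.34 ± 0.09), with adjusted p of 2.9e-04 and 0.00394 by edgeR's quasi-likelihood test. In KO against WT at 29 °C the log2 fold change of 0.06 ± 0.08 did not pass (adjusted p = 0.577).

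The fission genes did not follow 1 pattern. Mff (chromosome 1, 82724890 to 82752394, plus strand), the DRP1 receptor, measured 93.6, 103.4, 93.4 and 97.4 CPM in WT and 102, 92.4, 87.2 and 88.7 CPM in KO at room temperature. The warm libraries gave 49.98, 51.8, 48.4 and 50.5 CPM in WT and 96.5, 93.1 and 73.0 CPM in KO. The WT libraries at 29 °C were tightly grouped and low, and 2 of the 3 KO libraries there lay within the room-temperature range. Mff fell 1.93-fold with warm housing in WT (-0.95 ± 0.09, adjusted p = 1.2e-07 by edgeR's quasi-likelihood test). In KO the housing effect of -0.08 ± 0.10 did not pass (adjusted p = 0.516), and at 29 °C KO was 1.74-fold above WT (0.80 ± 0.09, adjusted p = 8.4e-06).

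Dnm1l (chromosome 16, 16312230 to 16358959, minus strand), which encodes the dividing GTPase itself, measured 115, 109.987, 99.7 and 105 CPM in WT and 114, 112, 109.6 and 108 CPM in KO at room temperature. With warm housing it measured 82.8, 83.5, 116 and 92.1 CPM in WT and 69.2, 77.3 and 72.9 CPM in KO. KO at 29 °C was the lowest group and overlapped no other, and WT at 29 °C replicate 3 reached the highest level of all 15 libraries. Warm housing lowered Dnm1l 1.52-fold in KO (-0.60 ± 0.11, adjusted p = 3.0e-04 by edgeR's quasi-likelihood test). The effect in WT, -0.20 ± 0.10, did not pass (adjusted p = 0.0783), and without WT replicate 3 it was -0.31 (adjusted p = 0.00247). KO was below WT at 29 °C (-0.35 ± 0.11, adjusted p = 0.0126), and this call was lost without KO replicate 1 (-0.31, adjusted p = 0.0584) and when only the libraries compared were fitted (-0.40, adjusted p = 0.0510).

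Fis1 (chromosome 5, 136953275 to 136966234, plus strand) varied least. Its levels at room temperature were 69.0, 58.8, 70.6 and 70.7 CPM in WT and 70.9, 68.1, 61.7 and 62.0 CPM in KO. At 29 °C they were 68.1, 69.4, 73.0 and 68.4 CPM in WT and 60.1, 54.4 and 54.4 CPM in KO. KO at 29 °C lay below WT at 29 °C and KO at room temperature, and overlapped WT at room temperature through replicate 2 of that group. Fis1 was 1.24-fold lower in KO than in WT at 29 °C (-0.31 ± 0.09, adjusted p = 0.00885 by edgeR's quasi-likelihood test). Without the 3 libraries with muscle transcripts the value was -0.29 (adjusted p = 0.145). Warm housing lowered it in KO (-0.22 ± 0.09, adjusted p = 0.0460), a call lost without any of 8 single libraries (adjusted p from 0.0145 to 0.127 over the 15). In WT the housing effect of 0.05 ± 0.08 did not pass (adjusted p = 0.577).

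Tfam (chromosome 10, 71225464 to 71238280, minus strand), the mtDNA-packaging factor, had the largest KO against WT difference of the 10 genes at 29 °C. Its levels were 57.9, 55.2, 60.9 and 52.6 CPM in WT and 54.5, 50.6, 49.0 and 49.3 CPM in KO at room temperature. At 29 °C they were 20.5, 18.8, 18.3 and 20.7 CPM in WT and 41.5, 49.4 and 36.4 CPM in KO. KO at 29 °C replicate 2 reached the room-temperature KO range, whereas all 4 WT libraries at 29 °C were below 21 CPM. Warm housing lowered Tfam 2.89-fold in WT (-1.53 ± 0.09, adjusted p = 1.6e-09 by edgeR's quasi-likelihood test), and at 29 °C KO was 2.17-fold above WT (1.11 ± 0.10, adjusted p = 9.3e-07). The housing effect in KO was small (-0.26 ± 0.10, adjusted p = 0.0410). It lost its call without any of 6 single libraries and was -0.16 (adjusted p = 0.207) without KO at 29 °C replicate 3.

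Polrmt (chromosome 10, 79736123 to 79746581, minus strand), the mitochondrial RNA polymerase, measured 48.0, 45.3, 41.6 and 45.9 CPM in WT and 45.8, 44.1, 42.7 and 42.5 CPM in KO at room temperature. The warm libraries gave 18.8, 16.1, 14.2 and 15.2 CPM in WT and 19.6, 28.1 and 21.3 CPM in KO. All warm libraries were far below those at room temperature, and the 2 warm genotypes parted by less than 1 CPM. It fell 2.81-fold with warm housing in WT (-1.49 ± 0.11) and 1.90-fold in KO (-0.93 ± 0.12), with adjusted p of 1.0e-08 and 1.9e-05 by edgeR's quasi-likelihood test. The KO against WT difference at 29 °C was 0.51 ± 0.12 (adjusted p = 0.00220). Without the 3 libraries with muscle transcripts it fell to 0.21 (adjusted p = 0.310), with 1 KO library left.

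Polg (chromosome 7, 79446231 to 79466362, minus strand), the mtDNA polymerase, went the other way. It measured 61.8, 60.9, 60.2 and 56.9 CPM in WT and 64.1, 53.1, 58.4 and 56.8 CPM in KO at room temperature. With warm housing it measured 72.9, 73.0, 78.1 and 88.6 CPM in WT and 56.4, 63.4 and 59.0 CPM in KO. WT at 29 °C stood above every other library, and KO at 29 °C overlapped the room-temperature groups. Polg rose 1.30-fold with warm housing in WT (0.38 ± 0.08, adjusted p = 7.1e-04 by edgeR's quasi-likelihood test). In KO the effect of 0.04 ± 0.09 did not pass (adjusted p = 0.769), and at 29 °C KO was 1.31-fold below WT (-0.39 ± 0.09, adjusted p = 0.00236). Its exons overlap those of Fanci on the opposite strand by 398 bases, and the sources used here do not give the strand setting of the counting. Fanci averaged 0.339 CPM. By edgeR's quasi-likelihood test it rose with warm housing in WT (1.40 ± 0.45, adjusted p = 0.0110). In KO against WT at 29 °C its value of -0.07 ± 0.42 did not pass (adjusted p = 0.904). Expected counts of Polg held decimals in 15 libraries, those of Mff in 8 and those of Nrf1 in 4. The part of shared reads in these levels was not tested. Exons of Dnm1l and Mff also overlap opposite-strand genes, Gm49521 by 243 bases and C430014B12Rik by 195 bases.

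Nrf1 (chromosome 6, 30047988 to 30153458, plus strand), whose protein regulates genes of the kind described here, was the least abundant member. It measured 11.1, 10.6, 11.1 and 10.6 CPM in WT and 10.2, 7.88, 8.54 and 9.63 CPM in KO at room temperature. The warm libraries gave 17.4, 14.8, 14.7 and 19.3 CPM in WT and 14.3, 14.2 and 14.4 CPM in KO. All 7 warm libraries were above all 8 at room temperature, and within each temperature every KO library was below every WT library. Warm housing raised Nrf1 in WT (0.61 ± 0.11, adjusted p = 8.5e-05) and in KO (0.66 ± 0.11, adjusted p = 2.3e-04) by edgeR's quasi-likelihood test. The KO against WT differences, -0.26 ± 0.11 at room temperature and -0.21 ± 0.11 at 29 °C, did not pass (adjusted p = 0.379 and 0.139).

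**Figure D2:**
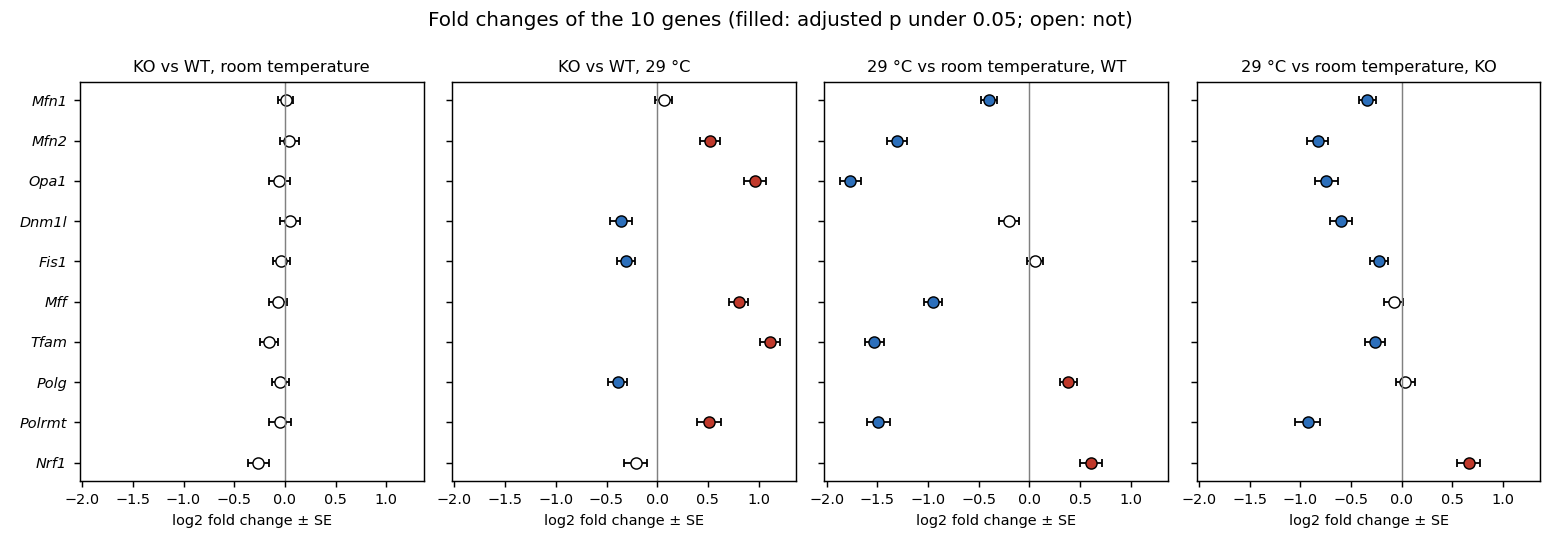
Log2 fold change ± SE (x axis) of each of the 10 genes (y axis) in the 4 pairwise comparisons. Filled points passed an adjusted p of 0.05, red for higher and blue for lower. No gene passed between the genotypes at room temperature, and 8 passed at 29 °C, 5 higher and 3 lower in KO.

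Counted by comparison, loss of DJ-1 at room temperature was accompanied by no called change in any of the 10 genes, whose log2 fold changes ran from -0.26 to 0.05. Among all genes 0.239% of 15083 genes passed there by edgeR's quasi-likelihood test (0.053% higher and 0.186% lower). DESeq2 and limma-voom also called 0 of the 10, and 1 of them (Nrf1) had an unadjusted p under 0.05. At 29 °C, 5 genes were higher in KO (Tfam, Opa1, Mff, Mfn2 and Polrmt) and 3 were lower (Polg, Dnm1l and Fis1), 8 of 10 against 44.7% of all genes tested (24.7% higher and 20% lower). The median log2 fold change was 0.29 over the 10 genes and 0.04 over all genes tested. Leaving out the 3 libraries with muscle transcripts, the log2 fold changes given above became 0.37 (Mfn2), -0.29 (Fis1) and 0.21 (Polrmt). That fit has 1 warm KO library, which is assumed to vary as the libraries of the other groups do.

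Warm housing in WT lowered 6 genes (Opa1, Tfam, Polrmt, Mfn2, Mff and Mfn1) and raised 2 (Nrf1 and Polg). These 8 of 10 stand against 68.8% of all genes tested (35.9% higher and 32.8% lower), so the share called is near the background, while the median was -0.67 against 0.06 over all genes. In KO, warm housing lowered 7 (Polrmt, Mfn2, Opa1, Dnm1l, Mfn1, Tfam and Fis1) and raised Nrf1, 8 of 10 against 46% of all genes (24.3% higher and 21.7% lower). The median there was -0.30, against 0.04 over all genes. Each genotype's housing effect and each temperature's genotype effect share libraries, so these counts are not independent of each other.

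The test of the difference itself, the genotype by housing interaction, passed for 7 of the 10 genes, against 28.3% of all genes (16% higher and 12.3% lower). It was positive, meaning that warm housing lowered the gene less in KO, for Tfam (1.27 ± 0.13, adjusted p = 1.8e-05), Opa1 (1.02 ± 0.15, 1.6e-04), Mff (0.87 ± 0.13, 2.0e-04), Polrmt (0.56 ± 0.16, 0.0157) and Mfn2 (0.48 ± 0.14, 0.0168). It was negative for Dnm1l (-0.40 ± 0.14, adjusted p = 0.0465), which fell with warmth in KO, and for Polg (-0.35 ± 0.12, 0.0454), which rose with warmth in WT. Each of those 2 calls was lost without any of 10 single libraries. The Polrmt call was lost without the 3 libraries with muscle transcripts (0.27, adjusted p = 0.310), without KO replicates 2 and 4 at room temperature (0.0548) and without KO at 29 °C replicate 2 (0.0562). The Mfn2 call was lost without the 3 libraries with muscle transcripts (0.34, adjusted p = 0.155), without KO at room temperature replicate 3 (0.0591) and without KO at 29 °C replicate 2 (0.0603). For Mfn1 (0.06 ± 0.12), Nrf1 (0.05 ± 0.15) and Fis1 (-0.27 ± 0.12) the interaction did not pass (adjusted p from 0.0951 to 0.840). Fis1 did pass by edgeR's quasi-likelihood test with mtDNA-encoded genes removed (-0.33, adjusted p = 0.0464). It also passed without KO at room temperature replicate 3 (-0.35, adjusted p = 0.0489). Without KO at 29 °C replicate 2 only 4 of the 10 passed, against 21.3% of all genes in that fit.

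Relative to WT at room temperature, the warm KO level was 90.3% for Mff, 74.9% for Tfam, 58.0% for Mfn2, 57.5% for Opa1 and 50.9% for Polrmt. The corresponding WT levels at 29 °C were 51.7%, 34.6%, 40.5%, 29.4% and 35.6%. KO at 29 °C replicate 3 was the lowest of its group for Opa1, Mfn2, Mff and Tfam. It also had the highest share of skeletal muscle markers (0.185%). Replicate 2, with the next highest share of that group (0.0560%), was its highest for Opa1, Mfn2, Tfam and Polrmt. Replicate 1, with 0.00307%, was its lowest for Polrmt. The part of muscle transcripts in these levels was not tested.

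Ratios of partner genes within a library, which library scaling does not touch, describe the same shifts with no test. Mfn2 to Mfn1 was 5.16 ± 0.280 in WT and 5.29 ± 0.573 in KO at room temperature, 2.75 ± 0.174 in WT at 29 °C and 3.76 ± 0.307 in KO at 29 °C (SD). Opa1 to Dnm1l was 2.55 ± 0.101 in WT and 2.37 ± 0.0938 in KO at room temperature. At 29 °C it was 0.871 ± 0.0884 in WT, ranging from 0.749 to 0.961, and 2.15 ± 0.384 in KO, ranging from 1.71 to 2.40. Mff to Fis1 was 1.45 ± 0.204 in WT and 1.41 ± 0.0363 in KO at room temperature, and 0.720 ± 0.0389 and 1.55 ± 0.190 in the warm groups in the same order. For Opa1 to Dnm1l and Mff to Fis1, WT at 29 °C alone had more counts of the second gene than of the first in every library. The ratios are of counts and depend on gene length, so only their shifts between groups can be read.

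Another pair of ratios was chosen after the levels were seen. Tfam to Nrf1 was 5.22 ± 0.211 in WT and 5.66 ± 0.564 in KO at room temperature, 1.19 ± 0.0862 in WT at 29 °C and 2.97 ± 0.481 in KO at 29 °C. Polrmt to Polg was 0.754 ± 0.0500 and 0.756 ± 0.0516 at room temperature, and 0.208 ± 0.0393 in WT and 0.384 ± 0.0520 in KO at 29 °C. Each of these ratios joins a gene that fell with warm housing in WT to a gene that rose, so their shifts follow from the choice.

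**Figure D3:**
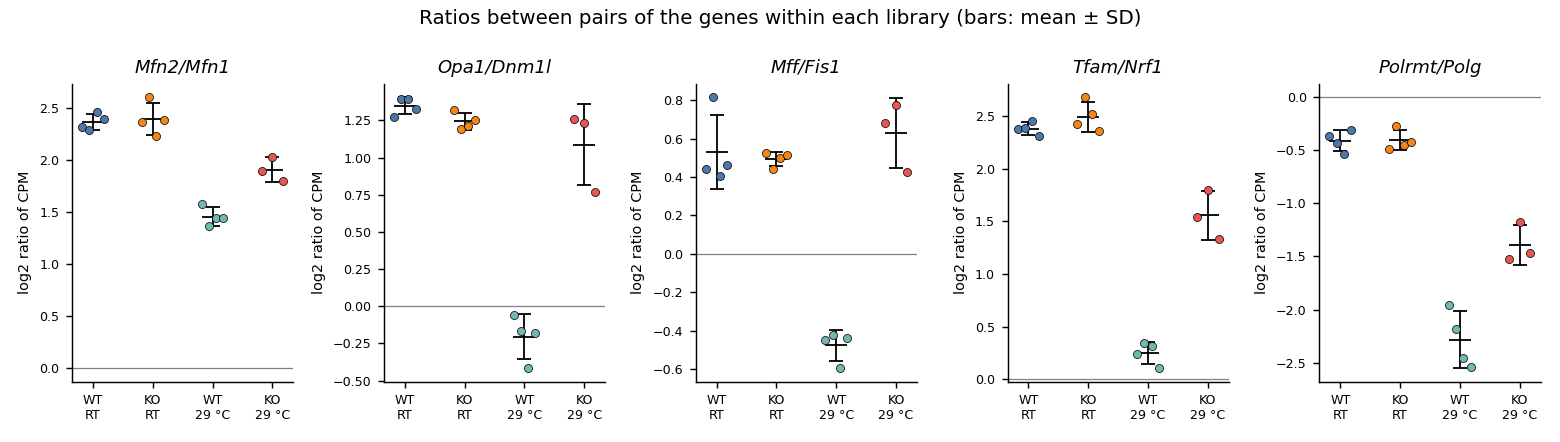
Log2 ratio of CPM (y axis) for 5 pairs of the genes in every library, by group (x axis); points are libraries, bars mean ± SD, and the grey line is a ratio of 1. In Opa1/Dnm1l and Mff/Fis1 the WT libraries at 29 °C lie below the line and all others above it.

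The products of mtDNA transcription were measured in the same libraries. As a share of unscaled counts, the 13 mtDNA-encoded mRNAs took 25.2% to 27.4% of counts in WT and 22.7% to 25.2% in KO at room temperature, 30.2% to 41.6% in WT at 29 °C and 25.8% to 26.9% in KO at 29 °C. The unscaled share was thus highest in WT at 29 °C, but the TMM-scaled levels did not part the WT groups that way. On the CPM scale used for Tfam and Polrmt the 13 summed to 294160 ± 14745 CPM in WT at room temperature and 305568 ± 76722 CPM in WT at 29 °C (SD, n = 4), which overlapped, and 9 of the 13 had a lower mean in WT at 29 °C. COX1 accounted for most of the CPM gained, going from 68191 to 104266 CPM. In KO the 13 summed to 263243 ± 17845 CPM at room temperature (n = 4) and 235364 ± 8728 CPM at 29 °C (n = 3). At 29 °C the genotypes did not overlap on this scale: the highest KO library had 244920 CPM and the lowest WT library 250171 CPM. Warm housing in WT raised COX1 (0.61 ± 0.16) and COX3 (0.30 ± 0.13) and lowered 5 of the 13, among them ND1 (-0.77 ± 0.16) and ND5 (-0.54 ± 0.19). These 7 calls are 53.8% of the list, below the 68.8% of all genes called there. In KO against WT at 29 °C 6 of 13 (46.2%, near the 44.7% of all genes) were lower and none higher, with ATP8 (-1.78 ± 0.24) and ND3 (-0.87 ± 0.15) the smallest in p, and ATP8 shares bases with ATP6, which makes its count uncertain. Adjusted p for these named genes ran from 3.7e-05 to 0.0490 by edgeR's quasi-likelihood test.

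**Figure D4:**
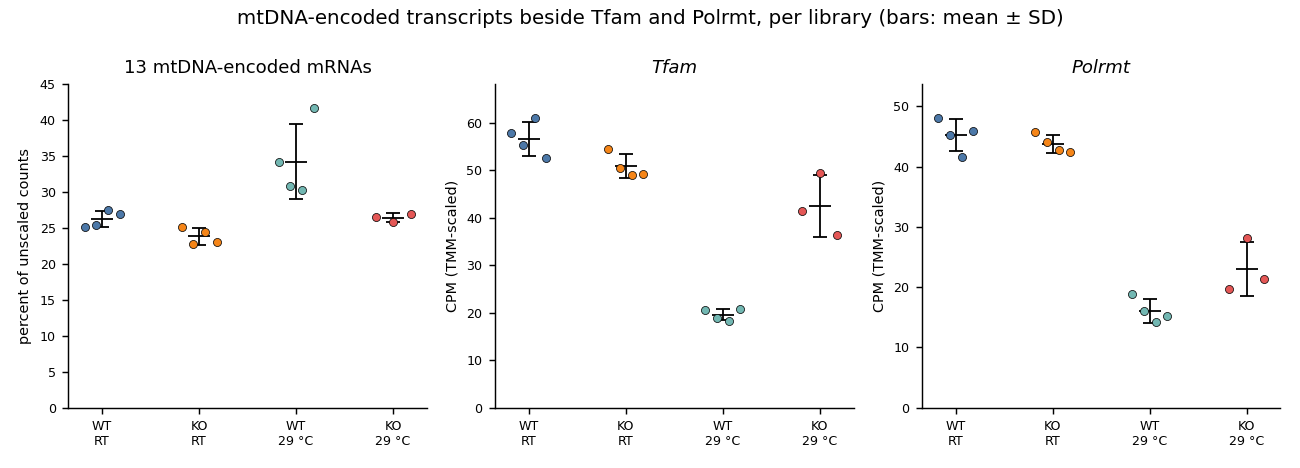
Share of unscaled counts taken by the 13 mtDNA-encoded mRNAs (left, y axis in percent) beside the TMM-scaled CPM of Tfam and Polrmt (middle and right), which are different scales, in every library by group; bars are mean ± SD. The unscaled share was 30.2% to 41.6% in WT at 29 °C, while on the CPM scale 9 of the 13 mRNAs had a lower mean there than in WT at room temperature.

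The wider machinery was described from 7 lists of nuclear genes around these functions, 102 genes tested. In KO against WT at 29 °C 59 were higher (57.8%, against 24.7% of all genes) and 8 lower (7.84% against 20%), with a median log2 fold change of 0.40 against 0.04 over all genes tested. With warm housing in WT 75 were lower (73.5% against 32.8% of all genes) and 11 higher (10.8% against 35.9%), with a median of -0.75 against 0.06. In KO 48 were lower (47.1% against 21.7%) and 8 higher (7.84% against 24.3%), with a median of -0.29 against 0.04. The share called in either direction is given for each list below, beside 44.7% of all genes for KO against WT at 29 °C and 68.8% for warm housing in WT. None of the 102 passed between the genotypes at room temperature by edgeR's quasi-likelihood test, where the median was -0.03.

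Among 17 genes of fusion, OPA1 processing and mitochondrial transport, 13 were higher and 1 lower in warm KO than in warm WT (median 0.45), 82.4% called against 44.7% of all genes. Rhot2, which encodes the mitochondrial transport GTPase Miro2, went from 42.9 ± 4.25 CPM in WT to 72.3 ± 10.8 CPM in KO, and Slc25a46, an outer-membrane protein, from 46.8 ± 5.34 to 83.9 ± 14.1 CPM. Fam73a, which encodes the fusion regulator mitoguardin 1, was the 1 lower (-1.04 ± 0.19) and the 1 higher with warm housing in WT (0.92 ± 0.18). That housing effect, called for 100% of the list against 68.8% of all genes, lowered the other 16, Rhot2 (-1.44 ± 0.09) and the prohibitin Phb2 (-1.19 ± 0.09) among them.

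The list of fission accessory genes groups genes by topic, and not each of them promotes fission. Of its 12 genes tested, 6 were higher and 2 lower in KO at 29 °C (median 0.38), 66.7% called against 44.7% of all genes. Mtfr1l (0.76 ± 0.09) and Mtch2 (0.67 ± 0.11) were higher. Mief2, a DRP1 receptor (-0.36 ± 0.11), and the formin Inf2 (-0.46 ± 0.15), which builds actin at division sites, were lower, as Dnm1l and Fis1 were. With warm housing in WT 7 fell, among them Mtch2 (-1.56 ± 0.10) and Mtfp1 (-1.44 ± 0.11), and Inf2 rose (0.70 ± 0.14), 66.7% called, which is near the 68.8% of all genes.

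Among 10 genes of the cristae-organising MICOS complex and its outer-membrane partners, 6 were higher and 1 lower in KO at 29 °C (median 0.40), 70% called against 44.7% of all genes. Mtx2, a metaxin of the outer-membrane import machinery, went from 32.0 ± 3.12 CPM (WT) to 95.0 ± 15.8 CPM (KO). Chchd3, a MICOS subunit, went from 156 ± 20.5 to 324 ± 34.5 CPM. The 1 lower was 2410015M20Rik (-0.42 ± 0.12). Warm housing in WT lowered 8 of the 10 (80% called against 68.8%), including Mtx2 (-1.97 ± 0.11) and the core MICOS subunit Immt (-1.60 ± 0.09).

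Of 16 genes of mtDNA replication and repair, 7 were higher and 1 lower in KO at 29 °C (median 0.33), and the 50% called is near the 44.7% of all genes. The mitochondrial exonuclease Mgme1 (0.91 ± 0.11) and the inner-membrane protein Mpv17 (0.79 ± 0.11), whose loss depletes mtDNA, were higher, and the exonuclease Exog was lower (-0.55 ± 0.19). Warm housing in WT lowered 10, with Ung, the uracil-DNA glycosylase, going from 9.57 ± 0.930 to 1.94 ± 0.565 CPM and Mgme1 falling by 1.14 on the log2 scale. It raised 3, including the nuclease-helicase Dna2 (1.25 ± 0.25) and Exog (0.62 ± 0.17), so that 81.2% were called against 68.8% of all genes. Polg, which rose with warmth, was thus unlike most genes of this list.

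Transcription and RNA processing of mtDNA had the largest median of the lists, with 13 of 19 higher and 1 lower in KO at 29 °C (0.59), 73.7% called against 44.7% of all genes. Lrpprc, which stabilises mitochondrial mRNAs, went from 44.98 ± 4.08 CPM (WT) to 118 ± 16.5 CPM (KO). Tfb1m, which encodes a methyltransferase of mitochondrial ribosomal RNA, measured 3.43 ± 0.128 and 8.54 ± 1.03 CPM. Mterf3, a repressor of mtDNA transcription, was lower (-0.35 ± 0.12). In WT, warm housing lowered 16 of the 19, including Lrpprc (-1.75 ± 0.09) and Tfb2m (-1.70 ± 0.10), the partner of TFAM and POLRMT in starting transcription, and raised Mterf3 (0.70 ± 0.11), 89.5% called against 68.8%.

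Of 12 genes of mitochondrial nucleotide supply, 6 were higher and 1 lower in KO at 29 °C (median 0.41), 58.3% called against 44.7% of all genes. The pyrimidine nucleotide carrier Slc25a33 (1.16 ± 0.18) was among those higher and the related carrier Slc25a36 was lower (-0.31 ± 0.12). Warm housing in WT lowered 9, including Suclg2 (-1.05 ± 0.12), a subunit of succinyl-CoA ligase, and raised the dNTP hydrolase Samhd1 (1.22 ± 0.14), 83.3% called against 68.8%.

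Among 16 nuclear regulators of mitochondrial biogenesis, 8 were higher and 1 lower in KO at 29 °C (median 0.43), 56.2% called against 44.7% of all genes. The orphan receptor Esrrg measured 26.3 ± 2.76 CPM in WT at room temperature, 4.80 ± 1.91 CPM in WT at 29 °C and 26.8 ± 9.19 CPM in KO at 29 °C. The GABP subunits parted: Gabpa, which binds DNA, was higher (0.57 ± 0.13) and Gabpb1, its partner, lower (-0.63 ± 0.15). With warm housing in WT Gabpb1 (0.94 ± 0.14) and the coactivator Pprc1 (1.08 ± 0.30) were among 4 that rose, as Nrf1 did, while Esrrg (-2.45 ± 0.24) and Esrra (-0.98 ± 0.12) were among 9 that fell, 81.2% called against 68.8%. Named genes of these 7 lists had adjusted p from 4.6e-10 to 0.0388 by edgeR's quasi-likelihood test.

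**Figure D5:**
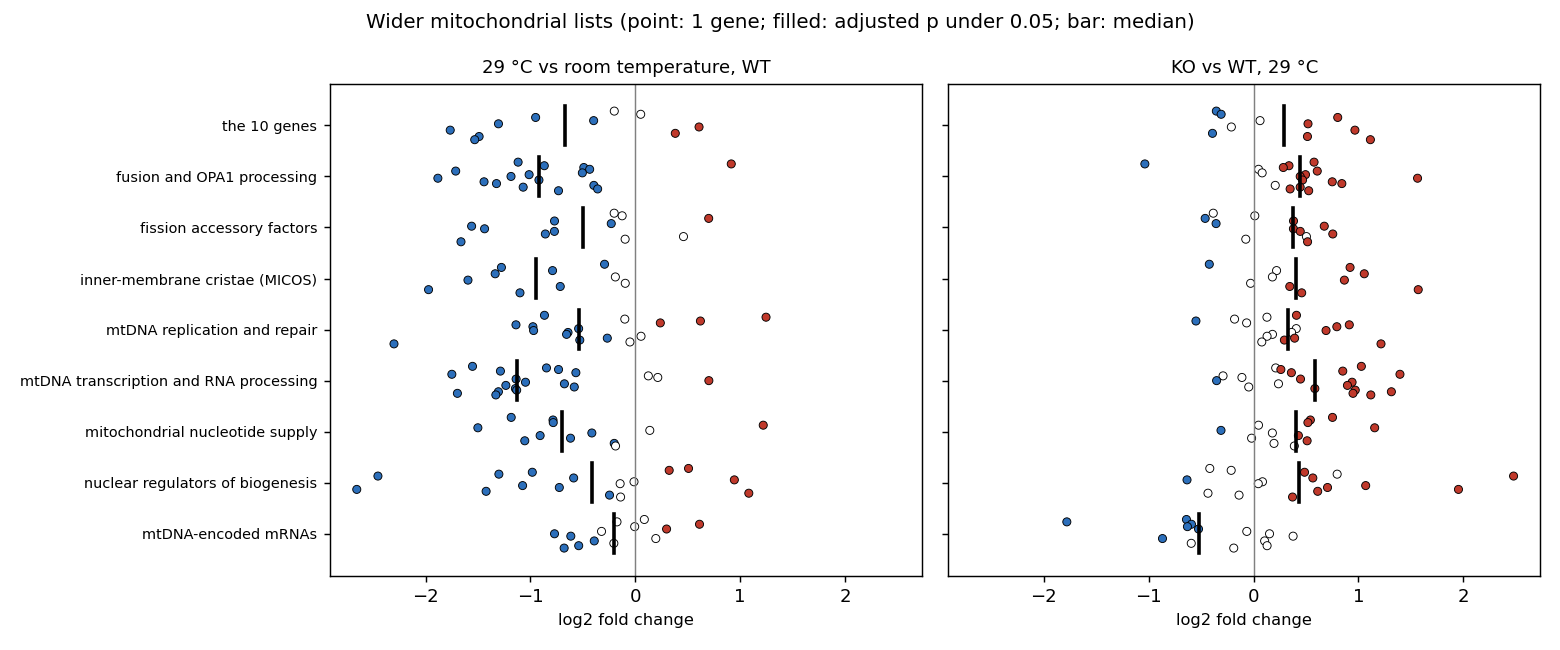
Log2 fold change (x axis) of each gene of the 10 and of 8 wider lists (y axis), for warm housing in WT (left) and KO against WT at 29 °C (right); filled points passed an adjusted p of 0.05, and black bars are medians. The medians of the nuclear lists lie below 0 on the left and above 0 on the right, and that of the mtDNA-encoded mRNAs lies below 0 in both.

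Genes most like the 3 members with the widest range were sought by the root mean square difference of centred log2 CPM over the 15 libraries, among 11744 other genes. Closest to Opa1 were Pnpla8, a phospholipase (difference 0.07), Mto1, which modifies mitochondrial transfer RNA (0.08), Pdpr, a regulatory subunit of pyruvate dehydrogenase phosphatase (0.09), and Prkaca, the catalytic subunit of protein kinase A (0.09). Closest to Tfam were Ppm1a, a protein phosphatase (0.09), Bcl2l13, a mitophagy receptor (0.09), Isca1, an iron-sulfur cluster assembly factor (0.10), and Manea (0.10). Closest to Polrmt were Oxa1l, the inner-membrane insertase (0.10), Agpat3, an acyltransferase (0.13), Pdk2, a pyruvate dehydrogenase kinase (0.13), and Msrb2 (0.13). Pnpla8, for example, averaged 279.5 CPM (WT) and 272 CPM (KO) at room temperature, and 78.8 CPM (WT) and 161 CPM (KO) at 29 °C.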

How the data were processed

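The authors deposited 1 table of RSEM expected counts, by gene symbol and library. STAR 2.7.10a, RSEM 1.2.28 and mm10 are named in the submitters' processing notes, and the labels' protocols give a BGIseq500 with 150 bp paired ends. Annotation and strand setting are not given in the sources used here. Each of the 15 columns carried the name of 1 sample. Expected counts were rounded, and 24 of the 24030 symbols had turned into dates. After filterByExpr (groups as given, minimum count 10) 15083 genes stayed. TMM scaling preceded a robust quasi-likelihood fit of 4 group means, with 11 residual degrees of freedom, in edgeR 4.0.16 under R 4.3.3. It was tested on simulated data. Benjamini-Hochberg adjustment covered every tested gene of a comparison, and calls were made under 0.05. Log2 CPM used a prior count of 1. Gene positions and exon lengths came from GENCODE M21 (GRCm38).

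The members, lists and tests were chosen with earlier results of these data known. All 10 members are named. From each wider list the text names up to 2 genes called higher and 2 called lower with the smallest p, in KO against WT at 29 °C and in warm housing in WT; 1 gene under this rule is not reported here. For the 3 members with the widest range of group means it names the 4 most alike genes of at least 1 CPM on average, leaving out clone-style symbols and dates. Some marker lists (white adipocyte, macrophage, lymphocyte, fibroblast) are described only in the closing section. Alternatives were RLE factors, removal of mtDNA-encoded genes, no filter, a filter of 1 CPM in 4 libraries, a fit to the compared groups only, DESeq2 1.42.0, voom in limma 3.58.1, the replicate number as a block, a threshold of 0.01, a 1.5-fold limit, leaving out 3 libraries with muscle transcripts, leaving out KO replicates 2 and 4 at room temperature, and leaving out each of 15 libraries.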

Additional observations from a re-analysis of the deposited data

Results flagged for a closer look

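In 7 genes the effect of warm housing differed between the genotypes by the interaction term: Tfam (1.27), Opa1 (1.02), Mff (0.87), Polrmt (0.56), Mfn2 (0.48), Dnm1l (-0.40) and Polg (-0.35), as log2 differences of KO minus WT. Without the 3 libraries with muscle transcripts, which leaves 1 warm KO library, the calls for Polrmt (0.27, adjusted p = 0.310) and Mfn2 (0.34, adjusted p = 0.155) were lost, and those for Dnm1l and Polg were lost without any of 10 single libraries. Among the 30 groups of 4 libraries examined, a single library stood apart from its group for 2: Opa1 in KO at room temperature replicate 1, at 286 CPM, and Fis1 in WT at room temperature replicate 2, at 58.8 CPM. Chance alone marks about 1 group in 20.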

How the results depend on the processing

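The number of the 10 genes called moved by over 1.5 times in these settings. With the 1.5-fold limit it was 3 of 10 for KO against WT at 29 °C, where 27.7% of all genes were called. It was 5 for warm housing in KO (29% of all genes) and 3 for the interaction (21.6%). At an adjusted p under 0.01 it was 3 for the interaction (15.3% of all genes). A stricter limit calls fewer genes. The number also moved for KO against WT at 29 °C without the 3 libraries with muscle transcripts, which keeps 1 warm KO library. With single libraries left out the interaction count ran from 4 to 7, the 4 without KO at 29 °C replicate 2 (21.3% of all genes). In the other comparisons it ran from 7 to 8 (KO against WT at 29 °C), 8 to 9 (warm housing in WT), 6 to 8 (warm housing in KO) and 0 to 0 (room temperature).

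Only uncalled log2 fold changes near 0 changed sign. For Mfn1 at room temperature they were -0.000221 (RLE), -0.0058 (no filter), -0.000491 (only the libraries compared), -0.000275 (DESeq2) and -0.0037 (without the 3 muscle libraries). Without those 3, Mfn1 at 29 °C was -0.043, Polg in warm KO -0.12, and the Mfn1 and Nrf1 interactions -0.039 and -0.066. Without KO replicates 2 and 4 at room temperature, Polg was 0.030 there and -0.044 in warm KO, and the Mfn1 interaction was -0.0051. The Nrf1 interaction was -0.0057 without mtDNA-encoded genes, and Polg in warm KO -0.023 with no filter. With single libraries left out, the range was -0.030 to 0.045 for Mfn1 and -0.013 to 0.077 for Mfn2 at room temperature, -0.0086 to 0.076 for Fis1 in warm WT, -0.17 to 0.033 for Mff and -0.019 to 0.086 for Polg in warm KO, and -0.026 to 0.13 for the Nrf1 interaction. The cause was not tested.

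With a replicate block, 7 members were called for warm housing in KO and 5 for the interaction, where Dnm1l (adjusted p = 0.0690) and Polg (0.0857) were lost; the other counts stayed at 0, 8 and 8. Same-numbered libraries did not deviate together in each pair (correlations from -0.28 to 0.33), and those with different numbers ran from -0.61 to 0.50. In groups of 3 or 4 libraries this check cannot settle whether the numbers pair them. Over all genes, the 36 called between the genotypes at room temperature (8 higher) became 237 with DESeq2, 4 at an adjusted p under 0.01, 13 without the 3 muscle libraries, 5 without KO replicates 2 and 4, and 5 to 60 with single libraries left out. With RLE factors 2 of 30 were higher. The interaction called 2304 at an adjusted p under 0.01, against 4272. KO against WT at 29 °C called 4182 with the 1.5-fold limit and 4229 without the muscle libraries, against 6747, and warm housing in KO 4374 and 4129, against 6940. All 40 group means stayed within 1 SD with RLE factors. Without mtDNA-encoded genes in the totals all rose, by 1.37 to 1.43 times. Replicates of a group differed by far more than sampling noise (chi-square per degree of freedom of at least 11.98). The interaction needs all groups, so it has no value with only the libraries compared.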

Other observations

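Other cell types varied with the groups whose member levels are given above. At 29 °C, 10 lymphocyte markers held a summed share of 7.8e-04% to 0.00113% in WT libraries, whereas KO libraries held 0.00288% to 0.00418%. By edgeR's quasi-likelihood test 9 of the 10 were higher in KO (90%, against 24.7% of all genes). The 7 macrophage markers took 0.0147% to 0.0225% in WT and 0.0271% to 0.0349% in KO at 29 °C. Of them 2 were higher and 1 lower in KO, and the 42.9% called is near the 44.7% of all genes. The 6 fibroblast markers took 0.0534% to 0.102% in WT and 0.0892% to 0.108% in KO at 29 °C. The 5 white adipocyte markers took 0.0270% to 0.0737% in WT and 0.0184% to 0.0274% in KO at 29 °C, against 0.00472% to 0.0156% at room temperature. Nnat made up most of the gap at 29 °C (246 CPM in WT and 38.7 CPM in KO). Lep was 102 CPM in WT and 129 CPM in KO, with overlapping libraries. Of these markers 2 were lower in KO and none higher, and the 40% called is near the 44.7% of all genes. The part of these cell types in the results was not tested.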
